A study of Homo sapiens with 6 samples.

Results

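Annexins are a family of calcium-dependent, phospholipid-binding proteins, and the transcripts of 10 of them, ANXA1 to ANXA8, ANXA10 and ANXA11, were compared between T98G and U87MG, which are established human glioblastoma cell lines. The members were taken by gene symbol from the annotation of the array platform. The array held 16 probe sets, each a group of short probes read as 1 value, whose listing included a member, of 22277 probe sets in all. Of these, 14 listed a single annexin gene and 2 listed an annexin beside another gene. The 14 covered 9 of the 10 genes among 11963 genes measured, because the only probe set for ANXA8 was listed for ANXA8L1 as well.

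Both lines were grown in the same serum-supplemented medium, and no treatment is named for any of the 6 Affymetrix arrays, 3 of T98G and 3 of U87MG. T98G is described in the labels as sensitive to apoptosis set off by bortezomib, a proteasome inhibitor, or by G5, an isopeptidase inhibitor, and as somewhat resistant to the necrosis that G5 causes. U87MG is described as the opposite case, resistant to apoptosis by either agent and sensitive to G5-induced necrosis. Each line is a single cell line, so a difference between them is a difference between these lines and not between classes of cells, and nothing in the labels shows that the replicates of a line came from different cultures. The p-values therefore speak for the scatter among these 6 arrays, which may be technical.

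Each annexin has a conserved core of repeats that binds calcium and, through it, membranes rich in acidic phospholipids such as phosphatidylserine, and a variable N-terminal tail that binds partners such as S100 proteins. Annexins take part in membrane trafficking, repair of the torn plasma membrane and inflammation, and ANXA5 is the protein whose labelled form is used to stain phosphatidylserine on dying cells. ANXA1 and ANXA2 are known to be abundant in glioblastoma cells. In the results, a level is a deposited log2 value, a difference is U87MG minus T98G on the log2 scale, and "called" stands for a difference of at least 2-fold with an adjusted p under 0.05 (limma, Benjamini-Hochberg over all genes).

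On the whole array, pairs of arrays had a Pearson correlation of 0.990 to 0.997 within a line and of 0.934 to 0.939 between lines. U87MG replicate 3 stood apart in the poly-A labelling controls, with a mean level of 5.30 against 6.10 to 6.84 on the other arrays. Of 10 glial and glioma markers, 2 were called higher in U87MG, NES (difference 2.55) and SLC1A3 (1.04), and 1 lower, SOX9 (-1.99). Among the others, vimentin (VIM) was bright, at 14.59 ± 0.05 in T98G against 14.85 ± 0.05 in U87MG (SD, n = 3, as for all ± values). The astrocyte marker S100B, at 4.13 ± 0.16 and 4.23 ± 0.08, lay just above the 3.32 to 4.03 read by TrpnX, a bacterial control. AQP4, of the same list, was low in both lines as well, whereas GFAP and ALDH1L1 lay well above the control range in both. Of 6 leukocyte and microglia markers measured, PTPRC was low, at 4.33 ± 0.12 in T98G and 4.55 ± 0.36 in U87MG, AIF1 and CD3E lay well above the control range in both lines, and CSF1R was called higher in U87MG (6.38 ± 0.10 against 7.39 ± 0.14). The part of these markers in the annexin values was not tested.

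None of the 9 annexin genes with a probe set of their own was called, 0 higher and 0 lower in U87MG by limma, while 13.6% of all genes tested were called. ANXA1, ANXA7 and ANXA10 were higher and ANXA4 and ANXA11 lower in U87MG at an adjusted p under 0.05, with differences that stayed below 2-fold. These 5 of 9 (55.6%) compare with 41.3% of all genes at that threshold alone, and 6 of the 9 (66.7%) had an unadjusted p under 0.05, as did 47.8% of all genes. ANXA2, ANXA3, ANXA5 and ANXA6 did not pass. The median size of the difference, regardless of direction, was 0.34 over the 9 genes and 0.26 over all genes, and the largest among the 9 was 0.66. For 6 of the 9 genes (66.7%) every array of one line was above every array of the other, as held for 52.0% of all genes. One annexin signal was far outside this range, that of the probe set shared by ANXA8 and ANXA8L1, which was lower in U87MG.

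**Figure D1:**
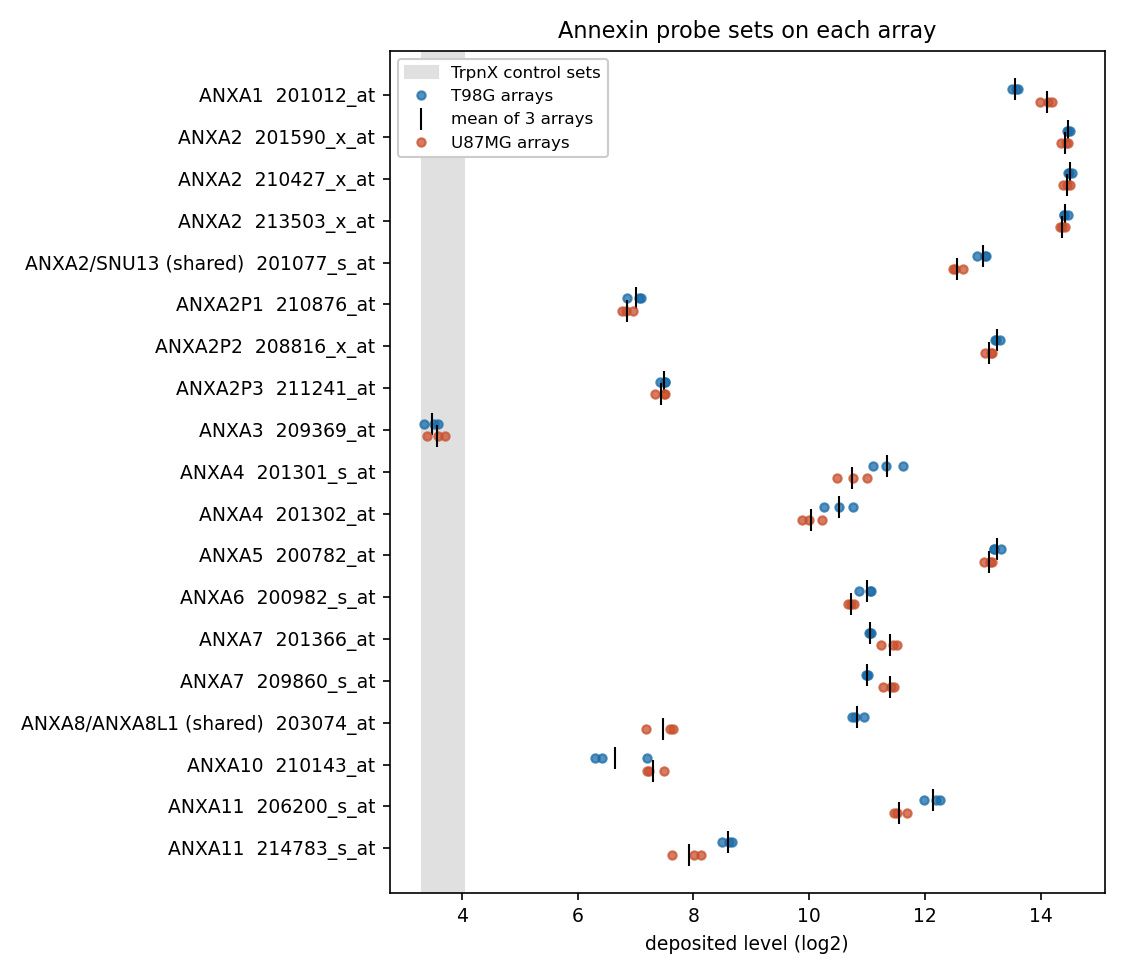
Deposited level (log2, horizontal axis) of each annexin probe set and of the ANXA2 pseudogenes on the 3 T98G arrays (blue) and the 3 U87MG arrays (orange), with black bars at the mean of each line and a grey band at the range of the TrpnX control (3.32 to 4.03). The widest gap between lines is that of the shared ANXA8/ANXA8L1 probe set, and the ANXA3 values all lie inside the control band.

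ANXA8 encodes an annexin known as an inhibitor of blood coagulation, and ANXA8L1 is its near-identical neighbour. The probe set listed for both read 10.75, 10.94 and 10.78 in T98G and 7.19, 7.65 and 7.59 in U87MG. The lowest T98G array was thus well above the highest U87MG array, and the U87MG arrays still read above the control range. The difference was -3.35 (SE 0.14, 95% interval -3.66 to -3.03), or 10.2-fold lower in U87MG, with a limma adjusted p of 2.18e-07 in a fit over all 22215 probe sets except controls, of which 12.3% were called. By the size of its difference it ranked 340th of those 22215. The signal cannot be divided between ANXA8 and ANXA8L1, and it is not counted among the 9 genes. Leaving out any 1 array gave differences of -3.44 to -3.20.

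Among 7 epithelial markers, keratin 18 (KRT18) was lower in U87MG as well, at 6.57 ± 0.09 against 12.05 ± 0.06 in T98G, and was the only one called. The mean level of the 7 was 6.15 to 6.16 on the T98G arrays and 5.42 to 5.48 on the U87MG arrays, but without KRT18 the mean of the other 6 was 5.17 to 5.18 in T98G and 5.24 to 5.28 in U87MG, and the median difference of the 7 was -0.07. EPCAM was higher in U87MG (0.89, adjusted p = 0.00161) but short of 2-fold. The defining epithelial gene CDH1 read 4.44 ± 0.07 in T98G and 4.47 ± 0.19 in U87MG, close to the control range. The part of such genes in the ANXA8/ANXA8L1 result was not tested.

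ANXA1, also called lipocortin 1, is a glucocorticoid-induced protein that dampens inflammation and acts on formyl peptide receptors. Its probe set read 13.56, 13.50 and 13.60 in T98G and 14.19, 14.12 and 13.99 in U87MG. All U87MG arrays were above all T98G arrays. ANXA1 was 1.46-fold higher in U87MG (difference 0.54, SE 0.10, adjusted p = 0.00171), and it kept an adjusted p under 0.05 with any 1 array left out (differences of 0.50 to 0.60).

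ANXA2 encodes the partner of S100A10 in a cell-surface complex that binds plasminogen and its activator. On the probe set with the highest mean, ANXA2 read 14.48, 14.47 and 14.54 in T98G and 14.38, 14.50 and 14.45 in U87MG, so the lines overlapped. The difference was -0.05 (95% interval -0.26 to 0.16, adjusted p = 0.735), an interval that does not reach a 2-fold difference. The other 2 ANXA2 probe sets had differences of -0.06 and -0.05. These levels lie near the top of the deposited scale, which reached 14.93, and whether differences were compressed there was not tested.

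ANXA2 has processed pseudogenes, and all 3 of its own probe sets carry the suffix of sets whose probes can match related transcripts. The pseudogene probe sets also showed no difference that passed, with -0.15 for ANXA2P1, -0.13 for ANXA2P2 and -0.04 for ANXA2P3 (adjusted p of 0.329, 0.325 and 0.811). A further probe set, listed for both ANXA2 and SNU13, had a difference of -0.45 (SE 0.10, adjusted p = 0.00732 in the fit over all probe sets) and was assigned to neither gene.

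Windows of 250 bases before the start of the transcript are shown for ANXA1, which was higher in U87MG, and for ANXA2, which did not pass. A window is also shown for ANXA8L1, listed with ANXA8 for the probe set of the largest difference. Whether ANXA8L1 contributed to that difference cannot be told. These windows put sequence beside the 3 kinds of result. They are the RefSeq sequences of build GRCh38.p14, with capitals at matches on either strand to TATAAA (the TATA box), CCAAT (the CCAAT box), TGAGTCA (an AP-1 site) and GGGCGG (the GC box).
ANXA1 (chr9:73151615-73151864, plus strand): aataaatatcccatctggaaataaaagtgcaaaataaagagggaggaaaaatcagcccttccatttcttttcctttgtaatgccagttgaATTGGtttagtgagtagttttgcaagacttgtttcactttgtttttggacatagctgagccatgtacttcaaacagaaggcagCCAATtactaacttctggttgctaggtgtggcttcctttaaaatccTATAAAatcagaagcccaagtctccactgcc
ANXA2 (chr15:60397987-60398236, minus strand): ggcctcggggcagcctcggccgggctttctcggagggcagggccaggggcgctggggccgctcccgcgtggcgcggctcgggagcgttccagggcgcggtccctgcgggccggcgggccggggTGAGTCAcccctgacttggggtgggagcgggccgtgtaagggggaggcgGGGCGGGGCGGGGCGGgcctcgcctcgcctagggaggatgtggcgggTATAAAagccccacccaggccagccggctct
ANXA8L1 (chr10:46375526-46375775, plus strand): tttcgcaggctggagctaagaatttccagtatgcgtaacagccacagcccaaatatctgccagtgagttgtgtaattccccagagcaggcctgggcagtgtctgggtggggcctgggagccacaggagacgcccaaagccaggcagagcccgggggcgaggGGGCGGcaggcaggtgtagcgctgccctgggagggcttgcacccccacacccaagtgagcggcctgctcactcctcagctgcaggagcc

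Of 35116 windows of this length in the RefSeq table, TATAAA was in 10.7%, CCAAT in 32.0%, TGAGTCA in 4.20% and GGGCGG in 42.6%. The ANXA1 window had 38.4% G and C, a TATAAA match 31 to 26 bases before the start and 2 CCAAT matches. The ANXA2 window had 78.0% G and C, a TATAAA match at the same distance, 1 TGAGTCA match and 3 GGGCGG matches, which overlap each other. The ANXA8L1 window had 64.0% G and C and 1 GGGCGG match. Over the 14 windows listed for annexins, G and C ran from 31.2% (ANXA10) to 78.8% (ANXA5), and TATAAA was also in the ANXA10 window and in 1 of the 3 ANXA11 windows. A match is only a run of letters, and no value in these data measures the activity of the windows.

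Of the 9 genes with a probe set of their own, ANXA4 and ANXA11 passed as lower in U87MG. ANXA4, which binds the membranes of secretory cells, read 11.32, 11.10 and 11.62 in T98G and 10.99, 10.76 and 10.48 in U87MG. The lines did not overlap, although the lowest T98G array lay only slightly above the highest U87MG array. The difference was -0.60 (SE 0.17, adjusted p = 0.0153), or 1.52-fold lower, and the second ANXA4 probe set gave -0.48 (adjusted p = 0.0318 among probe sets). Without T98G replicate 3 the ANXA4 difference was -0.47 and its adjusted p 0.0627.

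ANXA11 tethers RNA granules to lysosomes and binds the calcium sensors PDCD6 and S100A6. Its brighter probe set read 12.19, 11.98 and 12.26 in T98G and 11.68, 11.51 and 11.46 in U87MG, with no overlap. The difference was -0.59 (SE 0.12, adjusted p = 0.00236), or 1.51-fold lower in U87MG. The second ANXA11 probe set ran from 8.50 to 8.67 in T98G and from 7.64 to 8.13 in U87MG, a difference of -0.67 (adjusted p = 0.00414 among probe sets). ANXA11 passed with any 1 array left out, at -0.67 to -0.53.

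ANXA7 and ANXA10 passed less firmly. ANXA7, or synexin, promotes the aggregation and fusion of membranes, and its brighter probe set read 11.07, 11.05 and 11.04 in T98G and 11.45, 11.51 and 11.23 in U87MG. No arrays overlapped, and the T98G arrays were very close to each other. The difference was 0.34 (SE 0.11, adjusted p = 0.0272), or 1.27-fold higher, and the second ANXA7 probe set gave 0.39 (adjusted p = 0.0114 among probe sets). With 1 array left out, ANXA7 kept an adjusted p under 0.05 only without U87MG replicate 3 (0.00542), and the other 5 fits gave 0.0697 to 0.0982.

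ANXA10, an annexin typical of gastric epithelium, read 6.31, 7.21 and 6.42 in T98G and 7.49, 7.20 and 7.23 in U87MG. All these values lay below 7.63, the median of the probe set means, so the probe set was dim. T98G replicate 2 stood apart from its line and overlapped the U87MG arrays. The difference was 0.66 (SE 0.21, adjusted p = 0.0330). Without T98G replicate 2 it was 0.94 with an adjusted p of 0.000724, while leaving out any other array gave an adjusted p of 0.0554 to 0.123.

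ANXA5 read 13.19, 13.32 and 13.19 in T98G and 13.16, 13.12 and 13.02 in U87MG. Every U87MG array was below every T98G array, but by less than the test could call: the difference was -0.14 (95% interval -0.36 to 0.08, adjusted p = 0.321). ANXA6, whose core is duplicated and which binds cholesterol-rich membranes, likewise did not overlap, at 11.07, 11.05 and 10.85 in T98G against 10.77, 10.73 and 10.67 in U87MG. Its difference was -0.27 (95% interval -0.50 to -0.04, adjusted p = 0.0650). With 1 array left out, ANXA6 passed only without T98G replicate 3 (-0.34, adjusted p = 0.0458), and leaving out any other array gave an adjusted p of 0.0813 to 0.219.

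ANXA3, an annexin abundant in neutrophils, read 3.53, 3.35 and 3.58 in T98G and 3.71, 3.40 and 3.59 in U87MG. All 6 values lay within the range of the TrpnX control, so a difference in ANXA3 was not measurable here (0.08, 95% interval -0.19 to 0.34, adjusted p = 0.660).

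**Figure D2:**
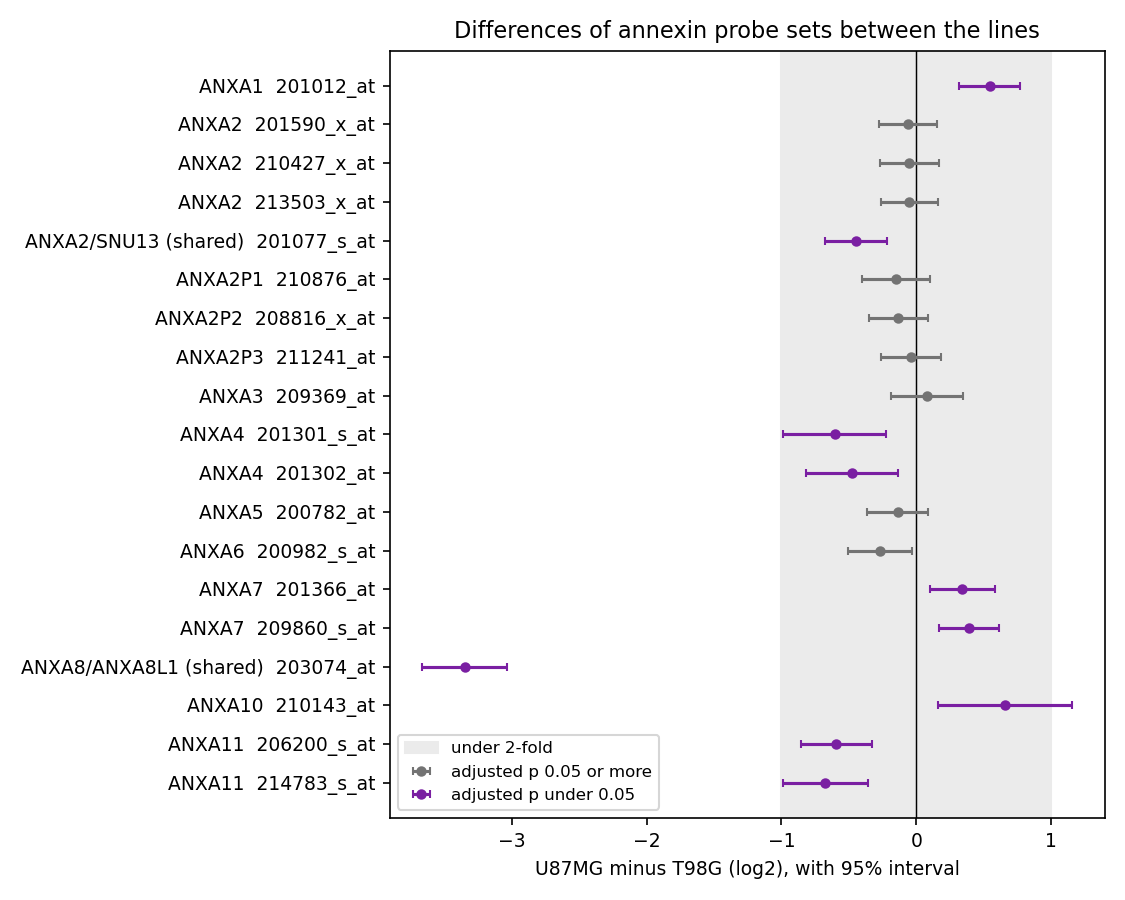
Difference between the lines (U87MG minus T98G, log2) with its 95% interval for each annexin probe set and ANXA2 pseudogene, purple where the adjusted p among probe sets was under 0.05 and grey otherwise. The shared ANXA8/ANXA8L1 probe set, at -3.35, is the only one outside the shaded 2-fold band.

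The several probe sets of a gene had the same direction. Over the 14 probe sets with a single annexin gene, 4 were higher and 4 lower at an adjusted p under 0.05, and 0 reached 2-fold by limma (9 at an unadjusted p under 0.05). Of the 19064 probe sets with 1 gene, 39.1% passed the adjusted p, 46.1% the unadjusted p and 12.8% the call. The differences of ANXA4 were -0.60 and -0.48, those of ANXA7 0.34 and 0.39, and those of ANXA11 -0.59 and -0.67. The annexin genes therefore did not share 1 direction between the lines, and the median signed difference over the 9 was -0.05 against -0.01 over all genes.

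**Figure D3:**
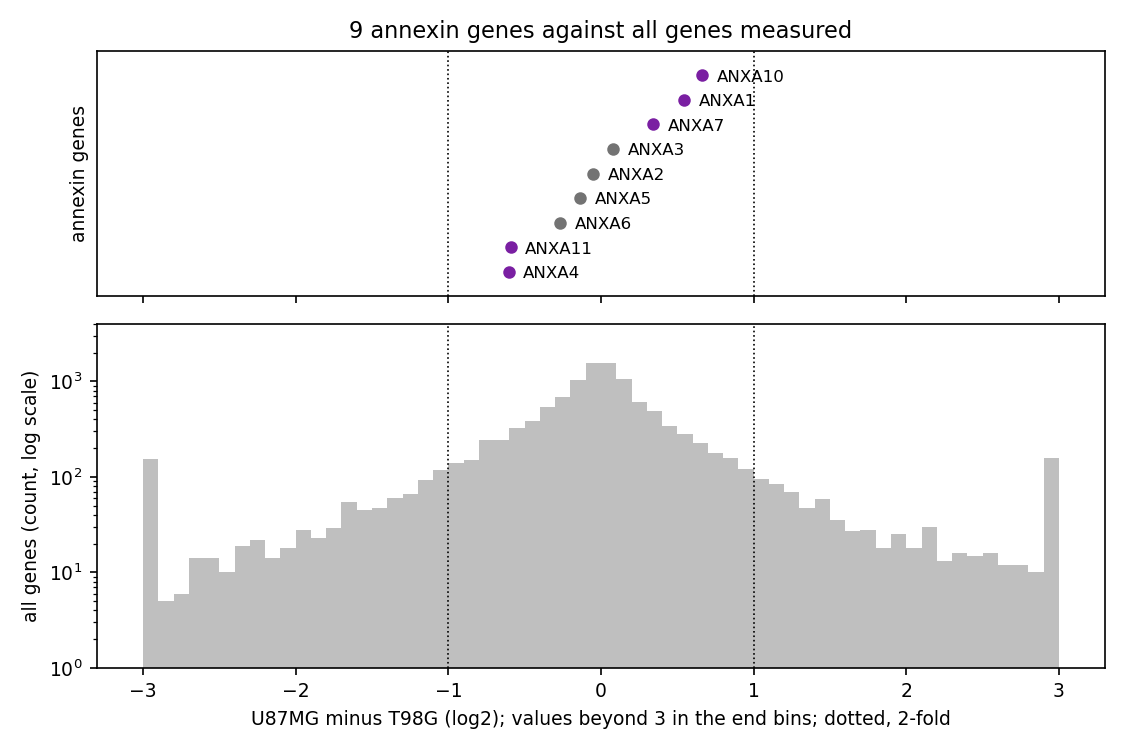
Upper panel, the difference (U87MG minus T98G, log2) of the 9 annexin genes with a probe set of their own, purple where the adjusted p was under 0.05; lower panel, the number of all 11963 genes at each difference on a log axis. The annexins run from -0.60 (ANXA4) to 0.66 (ANXA10), inside the dotted 2-fold lines.

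Genes related to annexins, not all of them known partners, were then compared in the same fit. Of 82 genes in 8 lists of partners and related functions, 66 were measured and 10 (15.2%) were called, 7 higher and 3 lower in U87MG, close to the 13.6% of all genes. At an adjusted p under 0.05 without the fold minimum, 39 of the 66 (59.1%) passed, against 41.3% of all genes. The median size of difference over the 66 was 0.39, against 0.26 over all genes. For each list below, the share of all genes called is 13.6%.

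The S100 partners, small calcium-binding proteins that dock on annexin tails, had 0 called higher and 1 lower of 5 (median difference 0.13). At an adjusted p under 0.05 alone, 2 of the 5 were higher and 1 lower, against 41.3% of all genes. S100A10, the partner of ANXA2, was at 13.79 ± 0.11 in T98G and 13.92 ± 0.07 in U87MG, a difference of 0.13 (adjusted p = 0.353). S100A11, the partner of ANXA1, was 1.23-fold higher in U87MG (0.30, adjusted p = 0.0352), short of the 2-fold minimum. S100A4, a protein linked to cell motility, was the called member, at 8.48 ± 0.32 in U87MG against 12.10 ± 0.05 in T98G (12.3-fold lower).

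Around ANXA1, 2 of 6 genes were called higher and 0 lower (median 0.13). FPR1, a formyl peptide receptor through which ANXA1 peptides act, was at 9.26 ± 0.12 in U87MG and 6.14 ± 0.08 in T98G (8.71-fold, adjusted p = 2.06e-08). That value came from the brighter of 2 FPR1 probe sets, a multiply matching one, and the other gave a difference of 0.11. The related receptors FPR2 (-0.03, adjusted p = 0.876) and FPR3 (-0.002, adjusted p = 0.994) did not pass. PLA2G4A, a cytosolic phospholipase A2, the kind of enzyme that lipocortins were described as inhibiting, was 2.59-fold higher at 8.18 ± 0.40 against 6.80 ± 0.34. NR3C1, the glucocorticoid receptor, was lower at 11.06 ± 0.20 in U87MG against 12.03 ± 0.10 in T98G (-0.97, adjusted p = 0.000168), just short of 2-fold, and its 4 probe sets gave -0.97 to -0.88.

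Plasminogen activation, which the complex of ANXA2 and S100A10 promotes at the cell surface, had 1 gene called higher and 0 lower of 4 measured (median 0.30). It was PLAUR, the urokinase receptor, at 11.99 ± 0.31 in U87MG against 10.09 ± 0.19 in T98G (3.73-fold). All 3 PLAUR probe sets were called, at 1.34 to 1.90. Of the 4 genes measured, 2 were higher and 0 lower at an adjusted p under 0.05 alone, against 41.3% of all genes. Penta-EF-hand calcium sensors and related partners, not all known to bind annexins, had 1 higher and 0 lower of 6 (median -0.04). The called gene was GCA, or grancalcin, at 2.03-fold. GCA fell under 2-fold without T98G replicate 2 (difference 0.88) or U87MG replicate 1 (0.95). Without the fold minimum, 2 of the 6 were higher and 3 lower, where 41.3% of all genes passed. PDCD6, the partner of ANXA11, was among the lower ones (-0.70, adjusted p = 0.00137), with 2 of its 3 probe sets called lower and differences down to -1.26. SRI, or sorcin, which binds ANXA7, had -0.89 on its brighter probe set and 0.47 on the other.

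Phospholipid scramblases, flippases and their subunits were 0 higher and 2 lower of 16 measured (median -0.17). Not all of them are known to move phosphatidylserine, the lipid that ANXA5 binds, across the plasma membrane. PLSCR4, a phospholipid scramblase, was at 6.58 ± 0.15 in U87MG and 8.32 ± 0.43 in T98G (3.36-fold lower), and ATP11A, a flippase that returns the lipid to the inner leaflet, was 2.10-fold lower. At an adjusted p under 0.05 without the fold minimum, 2 of the 16 were higher and 8 lower, where 41.3% of all genes passed (2351 higher and 2591 lower). ATP8A1, another flippase, had a difference of 0.17 on its brighter probe set, while its other probe set was called higher at 2.12.

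Genes that recognise exposed phosphatidylserine were 2 higher and 0 lower of 13 (median -0.01). PROS1, protein S, which bridges the lipid to TAM receptors, was at 9.86 ± 0.09 in U87MG and 6.15 ± 0.22 in T98G (13.1-fold). ITGB3, an integrin subunit that binds bridging proteins on dying cells, was 4.17-fold higher, with 4 of its 7 probe sets called. The 7 differences ran from 0.31 to 2.06, and ITGB3 was not called without multiply matching probe sets (0.70). Without the fold minimum, 3 of the 13 were higher and 3 lower, where 41.3% of all genes passed. GAS6, the other bridge to TAM receptors, was 1.95-fold lower (adjusted p = 8.07e-05), with 1 of its 2 probe sets called lower at -1.37.

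Membrane repair, in which annexins seal the torn edge, had 1 gene higher and 0 lower of 12 (median -0.00144). It was EHD1, an ATPase of membrane recycling, at 11.13 ± 0.14 in U87MG against 9.83 ± 0.13 in T98G (2.45-fold, all 5 probe sets called). Of the 12 membrane repair genes, 5 were higher and 2 lower at an adjusted p under 0.05 alone, against 41.3% of all genes. Copines, another family that binds phospholipid in a calcium-dependent way, had 0 called of 4 by limma (median 0.45), with CPNE1 at 0.52 and CPNE7 at 0.84. At an adjusted p under 0.05 without the fold minimum, 3 of the 4 were higher and 0 lower, where 41.3% of all genes passed. At an unadjusted p under 0.05 it was also 3, against 47.8% of all genes.

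**Figure D4:**
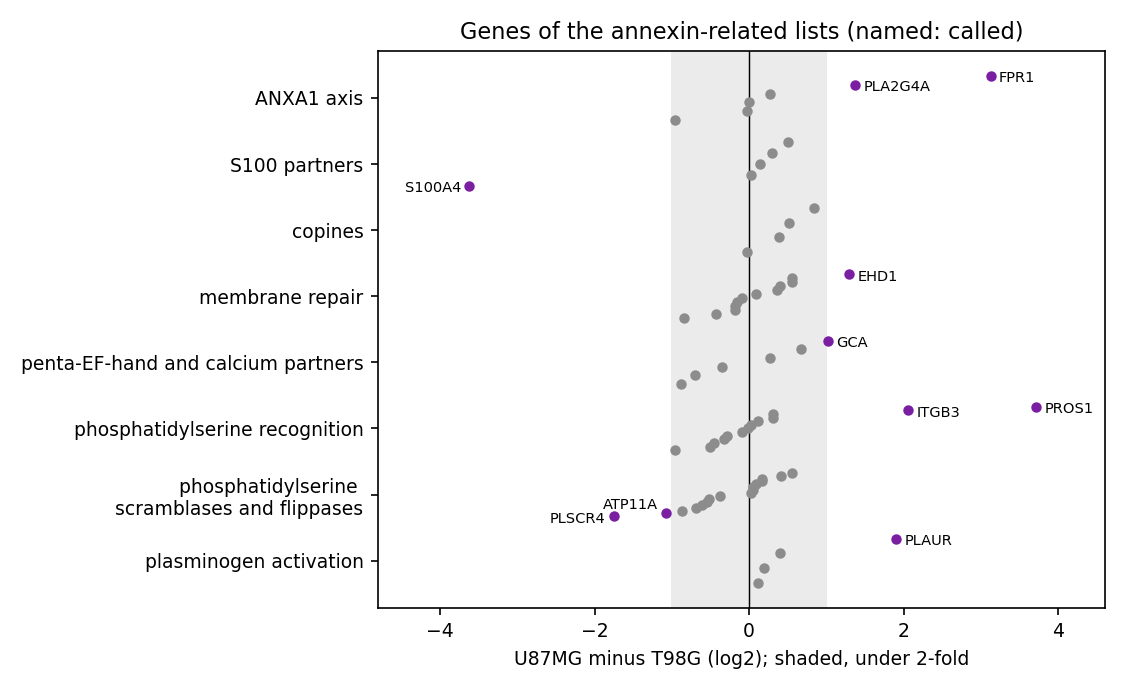
Difference (U87MG minus T98G, log2) of every measured gene of the 8 annexin-related lists, one point a gene, purple and named where called. PROS1 and FPR1 lie furthest to the right and S100A4 furthest to the left.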

How the data were processed

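Total RNA of 3 T98G and 3 U87MG arrays was measured on Affymetrix arrays after biotin labelling, per the labels' protocols. The values are log2, 1 per probe set, as deposited. The submitters' processing notes list RMA and limma; their versions and settings are not given in the sources used here. Such normalization equalises arrays and can compress differences of dim or very bright transcripts. The number of arrays limits the precision.

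Gene names come from the platform annotation, with symbols updated by Entrez identifier through the RefSeq gene table of GRCh38.p14, which matched 19052 of 19064 probe sets with 1 gene. Each gene was represented by its probe set with the highest mean. Lines were compared in limma 3.58.1 (R 4.3.3) by a two-sided moderated test, and p-values were adjusted by Benjamini-Hochberg over 11963 genes, in a separate fit over 19064 probe sets, and, for probe sets listed for several genes, over 22215. The last fit was added after the annotation was seen. On data simulated for U87MG against T98G with 11963 genes, a shift of 1.5 (log2) was recovered for 98 of 100 genes and one of -3 for 100 of 100, with 0 false calls. These simulated calls also needed at least 2-fold. The 9 annexin genes differed by at most 0.66, and recovery of shifts of that size was not tested.

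The members and lists were chosen with earlier results of these data known. Named genes were all members, the ANXA2 pseudogenes, S100A10, S100A11 and, of each list, up to 3 called genes per direction or else the 2 with the smallest p. The markers NES, SLC1A3, SOX9, VIM, S100B, AQP4, GFAP, ALDH1L1, PTPRC, AIF1, CD3E, CSF1R, KRT18, EPCAM and CDH1 were named outside that rule, after their values were seen. So were the list genes FPR2, FPR3, NR3C1, PDCD6, SRI, ATP8A1 and GAS6. Alternatives were other thresholds, limma's treat, the mean of probe sets, removal of multiply matching (_x_at, _s_at or _a_at) or dim probe sets, centring, quantile normalization, a variance trend, the replicate number as a block and leaving out each array. For 9 of the 10 members and for ANXA8L1, 5′ windows were matched by symbol; coordinates are those of the RefSeq table.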

Additional observations from a re-analysis of the deposited data

How the results depend on the processing

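No annexin gene reached the call of 2-fold and adjusted p under 0.05 in any alternative that kept the fold minimum, and none reversed in direction. With no fold minimum the counts were 5 of 9 annexin genes (55.6%), 8 of 14 annexin probe sets, 39 of 66 genes of the related lists (59.1%) and 4942 of all genes (41.3%). Of all probe sets with 1 gene, 39.1% passed. Without multiply matching probe sets 5 genes of the related lists were called rather than 10: FPR1 (0.11) and ITGB3 (0.70) fell under 2-fold, and S100A4, PROS1 and EHD1 had no value, nor did ANXA2, ANXA6 and ANXA11. Without dim probe sets ANXA3 and ANXA10 had no value and ANXA6 passed an adjusted p of 0.05 (0.0486). Limma's treat against 1.5-fold left no annexin gene passing (adjusted p of 1). Leaving out 1 array gave 1608 to 1650 called of all genes, 0 annexin genes and 9 to 12 genes of the related lists. The ANXA8/ANXA8L1 difference ran from -3.44 to -3.20 over 12 alternatives, with adjusted p from 4.31e-08 to 4.35e-06.

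With the replicate number as a block, 0 annexin genes, 10 list genes and 1626 of all genes were called, and no annexin gene crossed an adjusted p of 0.05. Deviations of same-numbered arrays from their line means correlated at 0.14, 0.077 and 0.076, and each array correlated best with its own number, a hint from the data and not from the design.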

Other observations

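U87MG replicate 3, which had the lowest poly-A controls, was the lowest array of its line for 6 of the 9 annexin genes (66.7%), against 42.0% of all genes. Those 6 were ANXA1, ANXA4, ANXA5, ANXA6, ANXA7 and ANXA11. Without it the differences between the lines were 0.60 for ANXA1, -0.47 for ANXA4, -0.10 for ANXA5, -0.24 for ANXA6, 0.42 for ANXA7 and -0.55 for ANXA11. All 6 kept their direction and their side of an adjusted p of 0.05. The part of labelling in these values was not tested.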
